A study of Mus musculus with 72 samples.

Results

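The genes described here are 47 cytosolic ribosomal protein genes of the mouse other than Rpl29, 29 of the large and 18 of the small ribosomal subunit. They were chosen by name, and all 47 names were matched to 1 identifier each among the 53715 gene identifiers in the count files. The large-subunit members are Rpl3, Rpl4, Rpl5, Rpl6, Rpl7, Rpl7a, Rpl8, Rpl9, Rpl10, Rpl10a, Rpl11, Rpl12, Rpl13, Rpl13a, Rpl14, Rpl15, Rpl18, Rpl19, Rpl22, Rpl23, Rpl24, Rpl27, Rpl27a, Rpl28, Rpl30, Rpl32, Rpl35, Rpl37 and Rpl38. The small-subunit members are Rps2, Rps3, Rps4x, Rps6, Rps7, Rps9, Rps14, Rps15, Rps16, Rps18, Rps19, Rps20, Rps23, Rps24, Rps25, Rps27, Rps27a and Rps29. The question addressed was whether their transcripts differ in tissues of Gnb5 knockout mice, in which counted Rpl29 is low.

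Total RNA was sequenced from 5 tissues of 18 male mice aged 18 weeks on an inbred C57BL/6J background, in 72 libraries. The whole left and right atria and the whole ventricles came from 6 Gnb5+/+, 6 Gnb5+/- and 6 Gnb5-/- mice. The whole cerebellum, both hippocampi and the whole cerebral cortex came from the Gnb5+/+ and Gnb5-/- mice alone, so there were 12 groups of 6 libraries. The mutant allele lacks exon 3 of Gnb5, which encodes a G-protein beta subunit, and is a germline deletion carried by every cell, in a line rederived from frozen sperm by in vitro fertilisation. Each library is a separate mouse within its group, and p-values refer to the spread between mice. In whole tissue, fewer cells of a type and less RNA per cell cannot be told apart.

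Ribosomal proteins and ribosomal RNAs together build the small subunit, which holds and decodes the messenger RNA, and the large subunit, which joins amino acids into protein. Each ribosome carries most of these proteins in a single copy, and the messenger RNAs that encode them are abundant in nearly every cell. Many of these messenger RNAs begin at a C followed by a run of pyrimidines (C or T in the DNA), the terminal oligopyrimidine tract through which their translation follows growth signals. A few members have further known roles: Rpl5 and Rpl11 bind Mdm2 and so stabilise p53 when ribosome assembly is disturbed, Rps6 is the substrate of the S6 kinases, and Rps27a is made as a fusion with ubiquitin.

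Promoter sequences were found in the RefSeq promoter table of GRCm38.p6 for 38 of the 47 members, which had 44 promoters between them. The sequences below are those of 9 members to which the results refer: members that differed strongly between heart and brain, and those on chromosome 9, the chromosome of Gnb5. Each runs 5′ to 3′ on the strand of the gene, from 50 bases before the annotated start through the first 20 transcribed bases. Capitals mark the longest unbroken run of C and T within 20 bases of the start. A run that extends beyond these bases is cut at their edge, as in Rps25.
Rpl35, chr2:39005112-39005181, minus strand: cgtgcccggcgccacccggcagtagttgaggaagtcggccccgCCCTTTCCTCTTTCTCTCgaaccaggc
Rps2, chr17:24720013-24720082, plus strand: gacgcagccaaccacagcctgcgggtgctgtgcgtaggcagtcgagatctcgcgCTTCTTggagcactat
Rpl23, chr11:97782420-97782489, minus strand: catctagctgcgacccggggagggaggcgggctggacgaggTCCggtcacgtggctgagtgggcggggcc
Rpl28, chr7:4792915-4792984, plus strand: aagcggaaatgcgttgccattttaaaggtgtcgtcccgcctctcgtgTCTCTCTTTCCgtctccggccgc
Rpl5, chr5:107900478-107900547, plus strand: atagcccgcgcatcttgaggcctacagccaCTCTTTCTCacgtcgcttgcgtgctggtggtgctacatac
Rpl15, chr14:18270967-18271036, minus strand: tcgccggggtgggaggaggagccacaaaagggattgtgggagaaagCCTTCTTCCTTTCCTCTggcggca
Rpl4, chr9:64173337-64173406, plus strand: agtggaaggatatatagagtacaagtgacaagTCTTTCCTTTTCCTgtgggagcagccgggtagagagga
Rpl14, chr9:120571467-120571536, plus strand: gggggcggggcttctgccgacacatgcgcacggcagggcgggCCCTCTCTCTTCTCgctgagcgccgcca
Rps25, chr9:44407664-44407733, plus strand: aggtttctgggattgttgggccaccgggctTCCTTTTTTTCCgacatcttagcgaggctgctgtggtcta

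The longest run of pyrimidines within 20 bases of the annotated start, on either side, was longer in the members than in promoters at large. Its median length was 7 bases over the 44 member promoters and 5 over all 32851 promoters in the table, and 19 member promoters (43.2%) had a run of 8 bases or more, against 16.05% of all. The longest runs were 21 bases in Rpl7a, 20 in Rpl27a and 18 in Rpl35. Rpl23, with 3 bases, lay at the other end among the sequences shown. The marked runs of Rpl5, Rpl4, Rps25 and Rpl23 lay wholly before the annotated start, and that of Rps2 began after it. These are matches of letters around an annotated start and not measured transcription start sites.

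Short motifs were searched on both strands of the 300-base promoters, 250 bases before to 50 after the start. CGGAAG, the core that Ets-family factors bind, was present in 23 of the 44 member promoters (52.3%) and 16.9% of all promoters. TATAAA, the core of the TATA box, was present in 2 (4.55%) against 13.6% of all. The 2 motifs cannot overlap each other, and a match is a description of the promoter alone.

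Levels between genes were compared as normalized counts (CPM, counts scaled to a common library size over all 72 libraries) per kilobase of exon. The exon length was that of all annotated exons of a gene together. It can exceed the length of a gene's transcripts, by different amounts in different genes, so the order of genes is approximate. Over the means of the 5 Gnb5+/+ tissues the members spanned 931-fold, with a median of 17.1 per kb. The highest were Rps15 at 231, Rpl4, a protein that lines the exit tunnel, at 152, Rpl8 at 133 and Rps4x at 104, the 4 members over 100. The lowest were Rpl24 at 0.248, Rps29 at 0.698 and Rps23 at 0.844, and 10 members were under 5. Rpl29 stood at 6.92 on the same scale.

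The low end of this order is further limited by how reads were counted. The authors counted reads that aligned to 1 place, and every member had at least 1 annotated pseudogene whose sequence matched its transcript at 95% identity or more over 80% of the pseudogene or more, 285 in all with a median of 5 per member and 33 for Rpl7a. These pseudogenes held 2.27% of the counts summed over members and pseudogenes. The share was 91.3% for Rps29, 84.2% for Rpl24, 53.4% for Rps7, 24.5% for Rps23 and 21.8% for Rpl38, and 21.4% for Rpl29, which matched 32 pseudogenes. Rpl24 had 832 counts and Rps29 1455 counts over all 72 libraries, and 46.99% of the exonic bases of Rpl24 were shared with Gm28037 on the same strand. Counts of these genes are uncertain as measures of their transcripts, because reads that fit several places equally well were not counted.

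Between 29204390 and 48807435 reads per library were counted on genes, with a median of 38864900. The labelled tissues matched their markers. In Gnb5+/+ libraries the median summed level of 7 cardiomyocyte markers was 61152 CPM in atria and 80595 CPM in ventricles and between 243 and 337 CPM in the brain tissues. The 4 atrial markers stood at 26039 CPM in atria and 263 CPM in ventricles, the 4 cerebellar markers at 2045 CPM in cerebellum and 113 to 117 CPM in the other brain tissues, and the 5 neuronal markers at 3107 to 4157 CPM in the brain and 34.7 to 258 CPM in the heart. Gnb5 counts were lower in Gnb5-/- than in Gnb5+/+ mice in every tissue, with log2 fold changes from -4.26 in ventricles to -2.84 in cerebellum.

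The members together took between 0.217% and 1.46% of counted reads, and 4 libraries stood apart from the rest. The sum of the 47 members, in CPM scaled within a tissue, was 15648 in the Gnb5-/- cerebral cortex of mouse 14 and 5076 in that of mouse 3, 7161 in the Gnb5-/- cerebellum of mouse 12 and 4636 in the Gnb5+/- ventricles of mouse 4. Within the same tissues, the remaining libraries spanned 2964 to 3302 CPM in cortex, 2205 to 2585 CPM in cerebellum and 2510 to 2817 CPM in ventricles. All 4 belonged to mutant mice, as did most of the 72 libraries, and no other tissue of these 4 mice stood apart in this way. The atria of mouse 14 did have the highest sum of the atrial libraries, 4734 CPM, with the next at 4412 CPM.

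**Figure D1:**
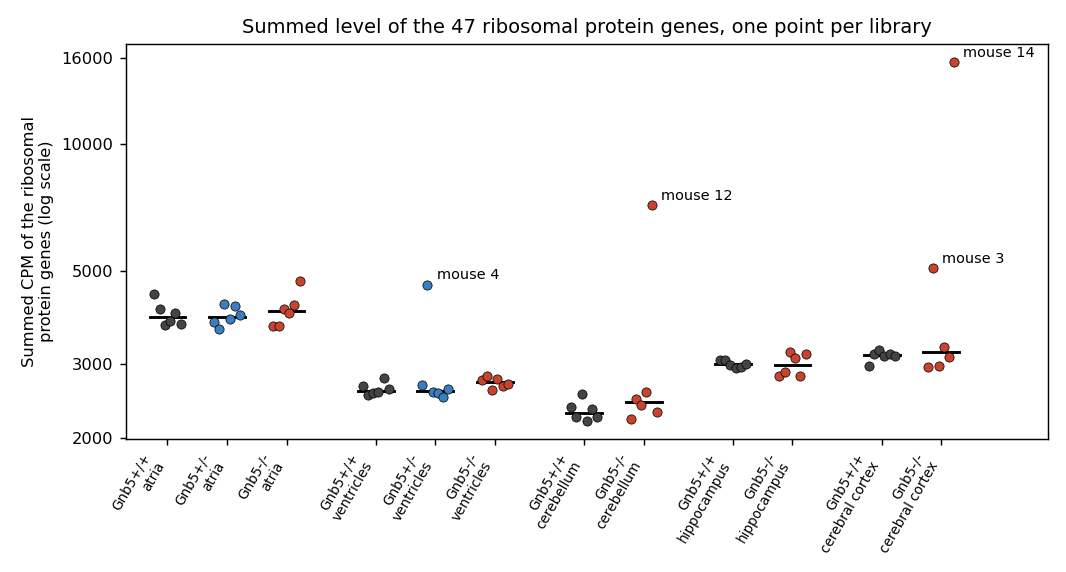
Sum of the 47 ribosomal protein genes in each library, in CPM scaled within a tissue, on a log axis; points are libraries, horizontal bars are group medians, and colour marks genotype (black Gnb5+/+, blue Gnb5+/-, red Gnb5-/-). The 4 libraries named by mouse, at 4636, 5076, 7161 and 15648 CPM, lie above all other libraries of their tissue.

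In these 4 libraries nearly all members were high together. Against the mean of the Gnb5+/+ libraries of the tissue, 45 of 47 members were above in the cortex of mouse 14, 46 of 47 in the cortex of mouse 3 and in the cerebellum of mouse 12, and 46 of 46 in the ventricles of mouse 4. The median deviation of the members, in log2 CPM, was 2.22, 0.71, 1.59 and 0.84 in this order. In the other 68 libraries it lay between -0.17 and 0.26.

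Other short transcripts were high in the same libraries. Protein-coding genes under 1000 exonic bases that are not ribosomal had median deviations of 2.06, 0.72, 1.71 and 0.84 in the same order, against -0.16 to 0.18 in the other 68 libraries, whereas genes over 5000 bases had -0.49, -0.26, -0.48 and -0.33. The nuclear genes of the mitochondrial ribosome had 1.66, 0.53, 1.15 and 0.59. The share of uniquely aligned reads outside annotated genes was 6.86%, 8.32%, 8.02% and 2.85% in these libraries, against 13.1 to 15.6% in the other cortex, 14.02 to 16.97% in the other cerebellum and 4.41 to 5.71% in the other ventricle libraries. Of 15 lists of cell type markers, 11 lay outside the range of the other libraries of the tissue in the cortex of mouse 14, 8 in that of mouse 3, 11 in the cerebellum of mouse 12 and 6 in the ventricles of mouse 4. Of those lists, 7 lay above and 4 below the range in the cortex of mouse 14 and in the cerebellum of mouse 12. The cortex of mouse 3 had 4 above and 4 below, and the ventricles of mouse 4 had 5 above and 1 below. The 4 astrocyte markers stood at 1422, 1938 and 616 CPM in the cortex of mice 14 and 3 and the cerebellum of mouse 12, below the 3224 to 3963 CPM of the other cortex and the 1005 to 1290 CPM of the other cerebellum libraries. The 4 endothelial markers were below the other libraries in all 4, and the 5 erythroid markers above them in all 4. The 4 choroid plexus markers stood at 625 CPM in the cerebellum of mouse 12, against 8.82 to 14.7 CPM in the other cerebellum libraries. The 8 skeletal muscle markers stood there at 1184 CPM, against 247 to 314 CPM. The 4 cerebellar markers stood at 335 and 197 CPM in the cortex of mice 14 and 3. The other cortex libraries had 112 to 140 CPM. The 5 neuronal markers were within the range of the other libraries in both cortex libraries and above it in the cerebellum of mouse 12. The part of transcript length, of reads outside genes and of these markers in the members' levels was not tested.

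**Figure D2:**
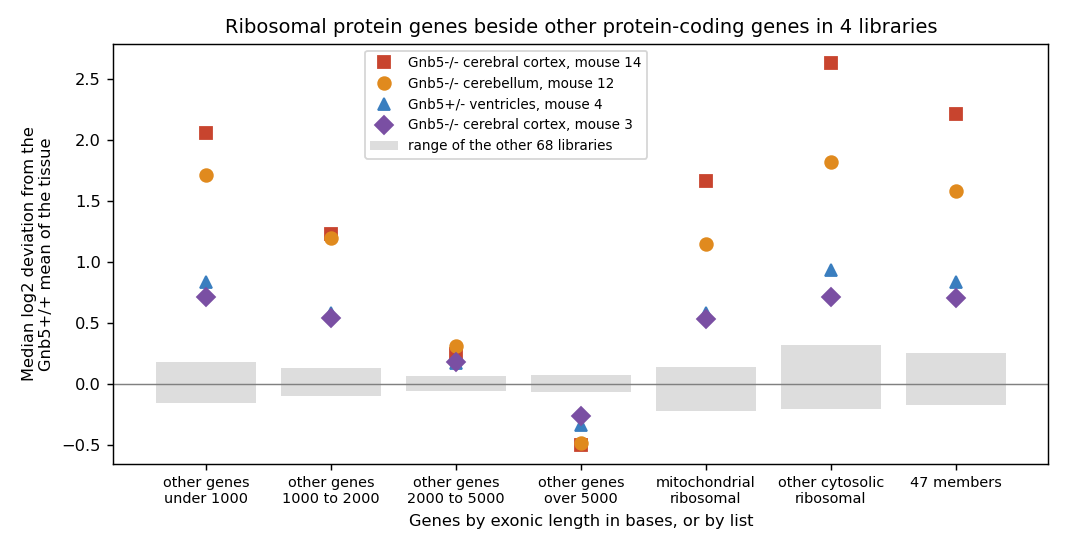
Median log2 deviation from the Gnb5+/+ mean of the tissue, for protein-coding genes grouped by exonic length, for 2 other ribosomal lists and for the 47 members, in the 4 libraries (symbols) and over the other 68 libraries (grey range). Genes under 1000 bases and ribosomal protein genes lie above the grey range in all 4 libraries, and genes over 5000 bases lie below it.

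Rpl29, a protein of the large subunit, was lower in Gnb5-/- mice in each tissue. In atria its lowest, median and highest values were 4.58, 9.28 and 10.1 CPM in Gnb5+/+ and 0.474, 0.973 and 1.23 CPM in Gnb5-/- mice, and the log2 fold change was -3.29 ± 0.25 (SE, n = 6 and 6; adjusted p = 1.39e-07, edgeR's quasi-likelihood test with Benjamini-Hochberg adjustment over all genes tested, as in every adjusted p below). The log2 fold change was -2.80 ± 0.28 in ventricles, -2.56 ± 0.21 in cerebellum, -2.57 ± 0.13 in hippocampus and -2.71 ± 0.16 in cortex. The Gnb5+/+ and Gnb5-/- values of Rpl29 did not overlap in any tissue. Without the 3 Gnb5-/- brain libraries that stood apart, it was -2.69 in cerebellum and -2.75 in cortex.

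No member was called different between Gnb5-/- and Gnb5+/+ mice in the atria (0 of 46 tested, adjusted p below 0.05), where 0.253% of all genes tested were called. No member had an unadjusted p below 0.05 in edgeR, against 8.15% of all genes, and DESeq2 called none and gave 1 member an unadjusted p below 0.05. The median log2 fold change of the members was 0.04, and of all genes tested about 0. The sum of the members was 3714, 3885 and 4412 CPM (lowest, median and highest) in Gnb5+/+ and 3691, 4014 and 4734 CPM in Gnb5-/- mice, a ratio of means of 1.03. The intervals of 2 standard errors either side of each member's log2 fold change lay within 1 unit of 0 for 46 of 46 members, and within 0.5 units for 39.

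The members of smallest p in atria were Rps14, Rpl28 and Rpl37. Rps14, a protein of the small subunit, had 75.1, 117 and 133 CPM in Gnb5+/+ and 115, 132 and 150 CPM in Gnb5-/- mice, and its log2 fold change was 0.24 ± 0.12 (adjusted p = 0.622, edgeR). Its groups overlapped, and the low end came from a Gnb5+/+ library. Rpl28 and Rpl37 had log2 fold changes of -0.24 and 0.21.

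The ventricles gave the same count, 0 of 46 members called, with 0.188% of all genes called. In edgeR 1 member had an unadjusted p below 0.05, against 4.78% of all genes, and DESeq2 likewise called none and had 1. The count was 4 without the Gnb5+/- library of mouse 4, 4 in a fit of these 2 genotypes and 5 with a covariate for reads outside genes. The 4.78% of all genes is from the fit with none of these changes, and no share is given for the others. The median log2 fold change of the members was 0.05 and the ratio of summed means 1.04. Intervals lay within 1 unit of 0 for 45 of 46 members, and the exception was Rpl38, whose interval reached 1.15.

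The member with an unadjusted p below 0.05 in ventricles was Rpl5, which binds Mdm2. Its level was 5.58, 6.01 and 6.83 CPM in Gnb5+/+, 5.50, 6.00 and 6.48 CPM in Gnb5+/- and 4.50, 5.10 and 5.59 CPM in Gnb5-/- mice. The highest Gnb5-/- library lay just above the lowest Gnb5+/+ library. The log2 fold change of Gnb5-/- over Gnb5+/+ was -0.26 ± 0.088 (SE; unadjusted p = 0.00705, adjusted p = 0.643, edgeR). The other 2 members named by size of p were Rpl3, a protein of the peptidyl transferase region, at 0.34 ± 0.17, and Rpl14 at 0.21 ± 0.11.

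In the hippocampus, the brain tissue with no library standing apart, 0 of 47 members were called, with 0.165% of all genes called. In edgeR 2 members had an unadjusted p below 0.05, against 7.70% of all genes, and DESeq2 called none and had 1. The members' median log2 fold change was -0.01, and the sum was 2947, 3003 and 3069 CPM in Gnb5+/+ and 2818, 2987 and 3205 CPM in Gnb5-/- mice. Intervals lay within 1 unit of 0 for 46 of 47 members and within 0.5 units for 45.

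The exception in hippocampus was Rps29. It had 0.262, 0.328 and 0.452 CPM in Gnb5+/+ and 0.261, 0.550 and 0.640 CPM in Gnb5-/- mice, which came from 11 to 17 and 11 to 29 counts per library. The log2 fold change was 0.56 ± 0.23 (unadjusted p = 0.0302, adjusted p = 0.612, edgeR), and the groups overlapped at their low ends. With the counts of matching pseudogenes added, it was 0.32 ± 0.14, and intervals of 47 of 47 members lay within 1 unit. Rpl10, which joins the large subunit late in its assembly, and Rpl11 followed, with log2 fold changes of -0.11 ± 0.050 and -0.11 ± 0.056.

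In the cerebellum 0 of 47 members were called, with 0.0817% of all genes called. No member had an unadjusted p below 0.05 in edgeR, against 5.85% of all genes, and DESeq2 called none of the 45 to which it gave an adjusted p and had 1 below 0.05. The median log2 fold change of the members was 0.43 with mouse 12 and 0.04 without it, and the ratio of summed means was 1.37 and 1.03. Genes under 1000 bases that are not ribosomal had a median of 0.47 with mouse 12, and their part was not tested. With a covariate for reads outside genes the members' median was -0.15, with 2 of 47 above 0 and 12 at an unadjusted p below 0.05, and none was called. The 5.85% of all genes is from the fit without the covariate, and no share is given for the fit with it. Intervals lay within 1 unit of 0 for 23 of 47 members with mouse 12, and for 47 without it.

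Rps2, which lies at the entry of the messenger RNA channel, shows how that library set the values. It had 38.1, 41.1 and 42.9 CPM in Gnb5+/+ and 40.9, 44.5 and 157 CPM in Gnb5-/- cerebellum, and the 157 was mouse 12. Its log2 fold change was 0.62 ± 0.31 (adjusted p = 0.583, edgeR) with that library and 0.10 ± 0.048 without it. Rpl14 and Rpl18, the other 2 of smallest p, had log2 fold changes of 0.38 and 0.62 with it and 0.16 and 0.10 without it.

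In the cerebral cortex, too, 0 of 47 members were called, with 0.0557% of all genes called. In edgeR 14 members had an unadjusted p below 0.05, against 7.39% of all genes, and DESeq2 called none of the 40 to which it gave an adjusted p and had 17. The count of 14 ranged from 0 to 29 when single Gnb5-/- or Gnb5+/+ libraries were left out in turn. The 7.39% of all genes is from the fit with all libraries and genotype alone, and no share is given for the other fits. The members' median log2 fold change was 0.75 with all libraries, 0.14 without mouse 14, 0.74 without mouse 3 and -0.03 without both. With a covariate for reads outside genes the median was -0.09, with 1 member at an unadjusted p below 0.05. The ratio of summed means was 1.76 with all libraries and 0.984 without both. Without both libraries 2 members had an unadjusted p below 0.05, and intervals lay within 1 unit of 0 for 47 of 47 members, against 13 with all libraries.

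The 3 members of smallest p in cortex followed mouse 14. Rps14 had 126, 134 and 138 CPM in Gnb5+/+ and 128, 139 and 1209 CPM in Gnb5-/- cortex, a log2 fold change of 1.33 ± 0.55 (adjusted p = 0.474, edgeR) that was 0.01 ± 0.043 without both libraries. Rpl12, of the stalk base of the large subunit, had 96.6, 108 and 113 CPM in Gnb5+/+ and 107, 115 and 656 CPM in Gnb5-/- cortex. Rpl13 had 10.1, 11.2 and 11.7 CPM in Gnb5+/+ and 10.5, 11.98 and 90.4 CPM in Gnb5-/- cortex. The highest value of each was the library of mouse 14, and the next was that of mouse 3, with 254 CPM for Rps14, 183 CPM for Rpl12 and 18.2 CPM for Rpl13. The log2 fold changes of Rpl12 and Rpl13 were 1.01 and 1.21 with both libraries and 0.08 and 0.03 without them.

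**Figure D3:**
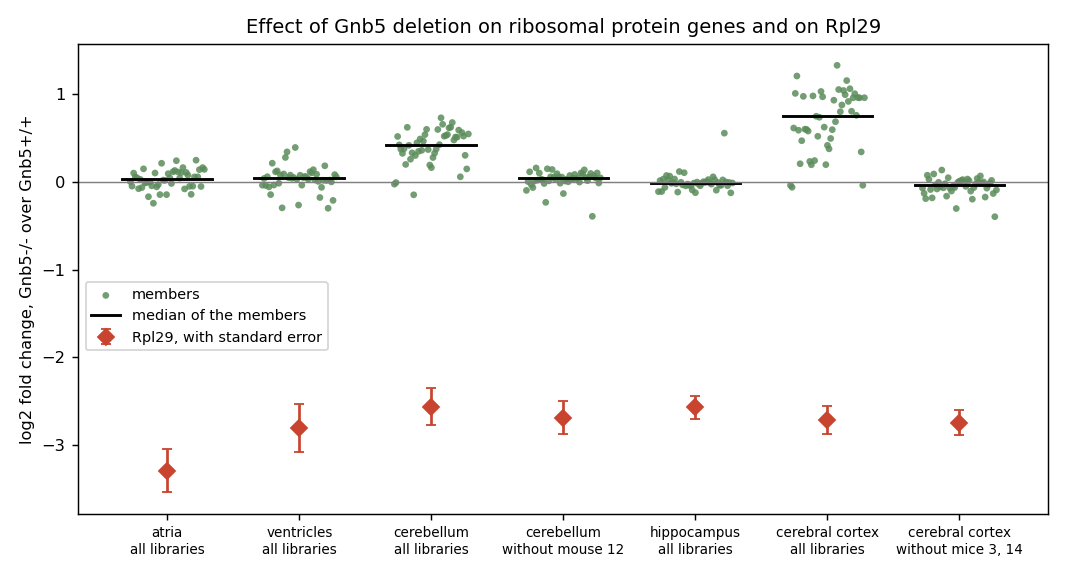
Log2 fold change of Gnb5-/- over Gnb5+/+ for each of the 47 members (green points, with their median as a bar) and for Rpl29 (red diamonds, with standard error), by tissue, with all libraries and without the brain libraries that stood apart. The members' medians are 0.04, 0.05, 0.43, 0.04, -0.01, 0.75 and -0.03 from left to right, and Rpl29 lies between -3.29 and -2.56.

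In none of the 5 tissues did the Gnb5-/- and Gnb5+/+ values of a member separate without overlap (0 members in each), while 0.612% of all genes tested did so in atria, 0.538% in ventricles, 1.1% in cerebellum, 0.648% in hippocampus and 0.601% in cortex.

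On chromosome 9 of GRCm38, which carries Gnb5 and Rpl29, lie 3 members. Rpl4 (64173375 to 64178666, plus strand) is 11.128 Mb from Gnb5, Rps25 (44407139 to 44410427, plus strand) 30.896 Mb and Rpl14 (120571444 to 120574654, plus strand) 45.226 Mb. Across atria, ventricles, cerebellum, hippocampus and cortex, the Gnb5-/- log2 fold changes were 0.02, 0.03, 0.19, -0.01 and 0.20 for Rpl4. They were -0.14, 0.02, 0.51, -0.04 and 0.81 for Rps25, and 0.03, 0.21, 0.38, 0.03 and 0.21 for Rpl14. None was called. Without the libraries that stood apart, Rps25 had 0.02 in cerebellum and 0.00 in cortex, and Rpl14 had 0.16 and -0.18.

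The heterozygous comparison in the heart used the same Gnb5+/+ libraries as the knockout comparison, so the values of both are given without a measure of their likeness. In atria 0 of 46 members were called between Gnb5+/- and Gnb5+/+ mice, with 0.0124% of all genes called, and in ventricles 0 of 46, with 0.0202% of all genes called. DESeq2 called none, and neither tool gave a member an unadjusted p below 0.05 in either tissue (0 and 0), against 7.22% of all genes in atria and 4.84% in ventricles in edgeR. Without mouse 4, 1 member did in ventricles in edgeR, against 6.85% of all genes. The median log2 fold change was -0.04 in atria and 0.13 in ventricles, and -0.09 in ventricles without mouse 4. No member's groups separated without overlap, against 0.198% of all genes in atria and 0.168% in ventricles. Rpl29 had log2 fold changes of -0.43 in atria (adjusted p = 0.713, edgeR) and -0.42 in ventricles, the latter -0.75 without mouse 4 (adjusted p = 0.708).

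Rpl3 was among the 3 members of smallest p in both heart tissues of Gnb5+/- mice. In atria it had 70.1, 97.6 and 117 CPM in Gnb5+/+ and 104, 111 and 119 CPM in Gnb5+/- mice, and its log2 fold change was 0.21 ± 0.11. In ventricles it had 20.3, 25.4 and 33.5 CPM in Gnb5+/+ and 26.1, 27.6 and 49.97 CPM in Gnb5+/- mice, and its log2 fold change was 0.33 ± 0.17. The highest of these was mouse 4, without which the log2 fold change was 0.16 ± 0.15. The groups overlapped in both tissues. Intervals lay within 1 unit of 0 for 46 of 46 members in atria and in ventricles, and for 44 in ventricles without mouse 4, where Rpl38 and Rps7 reached outside.

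Between Gnb5-/- and Gnb5+/- mice 0 of 46 members were called in atria, with 0.0494% of all genes called, and 0 of 46 in ventricles, with 0.0874% of all genes called. No member in atria and 3 in ventricles had an unadjusted p below 0.05 in edgeR, against 4.86% and 8.79% of all genes, and DESeq2 called none and likewise had 0 and 3. The 3 were Rpl5, with a log2 fold change of -0.24 ± 0.088 (adjusted p = 0.460, edgeR), Rps6, the S6 kinase substrate, with -0.55 ± 0.21, and Rps24 with -0.25 ± 0.12. No member's groups separated, against 0.445% of all genes in atria and 1% in ventricles. The members' median in ventricles was -0.09, and 0.10 without mouse 4. Without that library 8 members had an unadjusted p below 0.05, against 12.5% of all genes, and the smallest p was that of Rps15 (0.19 ± 0.059; adjusted p = 0.246, edgeR).

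Whether the knockout difference itself differed between tissues was tested as an interaction, with each mouse as a block, since tissues of the same mouse were compared. No member of 47 was called between ventricles and atria (0.00491% of all genes called), cerebellum and cortex (0.0196%), hippocampus and cortex (0%), cerebellum and hippocampus (0.0246%) or heart and brain (0.408%). In edgeR 2, 0, 10, 0 and 4 members in this order had an unadjusted p below 0.05, against 4.396%, 2.35%, 6.38%, 3.45% and 13.3% of all genes, and DESeq2 called none and had 2, 0, 12, 0 and 4. The 10 members of the hippocampus and cortex contrast included Rpl13 at -0.87 ± 0.37, Rps4x at -0.75 ± 0.34 and Rps24 at -0.76 ± 0.35 on the log2 scale with all libraries. Without the 3 Gnb5-/- brain libraries that stood apart, 1 member had an unadjusted p below 0.05 in that contrast, against 2.67% of all genes. The members' median was then 0.02, against -0.52 with all libraries. Between heart and brain 1 member did so without them, against 11.4% of all genes, with the median at 0.04 against -0.28. Rpl24 had the smallest p between ventricles and atria (-1.85 ± 0.67; adjusted p = 0.856, edgeR), from 0 to 8 counts per heart library.

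Further genes of ribosome production and translation were counted in the same way. Of 32 other cytosolic ribosomal protein genes, 31 ribosome biogenesis genes, 24 elongation and initiation factors, 10 regulators of terminal oligopyrimidine messengers and 13 p53 target genes, none was called between Gnb5-/- and Gnb5+/+ mice in any tissue. The medians of the 32 other ribosomal protein genes were 0.08, 0.03, 0.53, -0.01 and 0.97 in atria, ventricles, cerebellum, hippocampus and cortex, and 0.05 in cerebellum without mouse 12 and -0.07 in cortex without mice 3 and 14. Ribosome biogenesis genes had medians of -0.01, 0.00, 0.08, 0.03 and 0.11, and elongation and initiation factors of -0.05, -0.02, 0.17, 0.00 and 0.21. Without those libraries, the values of both lists lay between -0.02 and 0.03 in cerebellum and cortex.

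Of the 77 nuclear genes of the mitochondrial ribosome that were tested, 1 was called, and it was lower. Mrpl3, on chromosome 9, had log2 fold changes of -0.60 ± 0.10 in atria (adjusted p = 0.00894), -0.44 ± 0.084 in ventricles (adjusted p = 0.0240) and -0.25 ± 0.041 in hippocampus (adjusted p = 0.0244), all in edgeR. The medians of the 77 were -0.09, 0.02, 0.33, -0.01 and 0.52 over the 5 tissues, with 0.07 in cerebellum without mouse 12 and 0.00 in cortex without mice 3 and 14.

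The members were also compared among the tissues of Gnb5+/+ mice. Large shares of all genes were called there, so a call alone does not set the members apart. These comparisons used 30 libraries with the mouse as a block and CPM scaled over all 72 libraries. Between heart and brain 42 of 47 members were called, 36 higher in heart and 6 lower, where 91.6% of all genes tested were called, 41% higher and 50.6% lower. The median log2 fold change of heart over brain was 0.88 for the members and -0.23 for all genes.

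**Figure D4:**
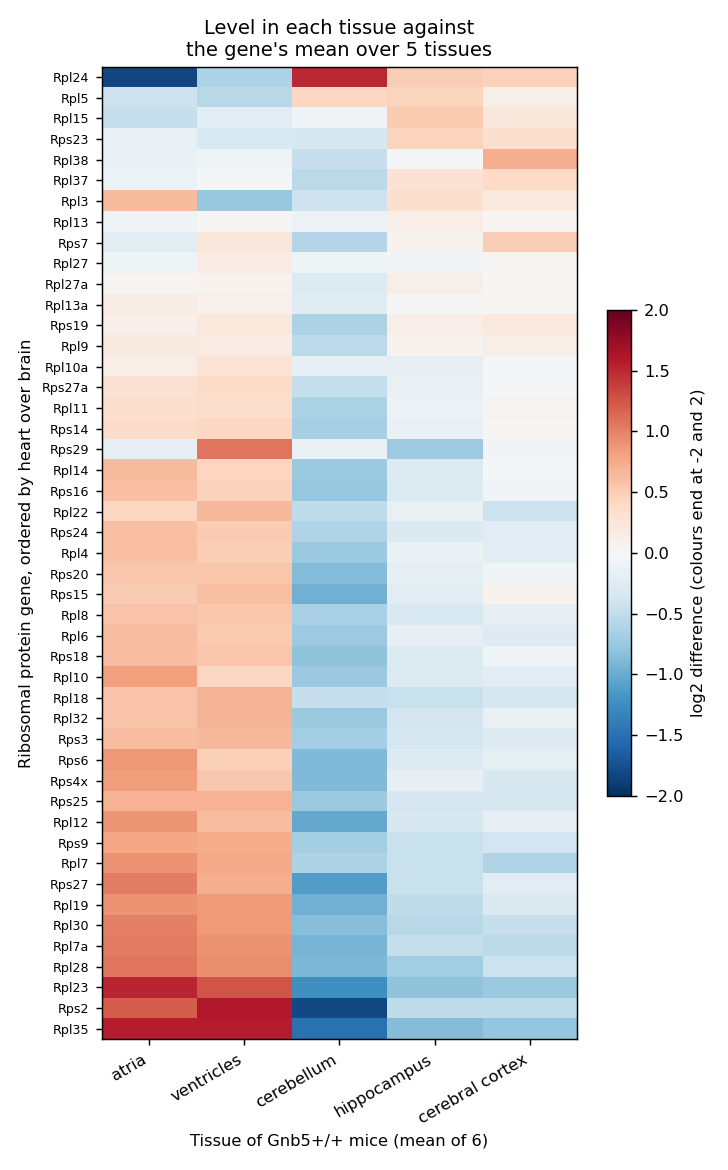
Level of each member in the 5 tissues of Gnb5+/+ mice as a log2 difference from its own mean over the tissues (colour, limited to -2 and 2), ordered by the heart over brain difference. Rpl35, Rps2 and Rpl23 at the bottom are highest in both heart tissues, and Rpl24, Rpl5 and Rpl15 at the top are highest in brain tissues.

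The members highest in heart over brain were Rpl35, at the exit of the protein tunnel, Rps2, Rpl23 and Rpl28. Rpl35 had mean levels of 88.3 ± 9.7 CPM per kb in atria and 88.3 ± 24.4 in ventricles (SD, n = 6), against 10.6 ± 1.4 in cerebellum, 16.3 ± 1.4 in hippocampus and 17.5 ± 1.1 in cortex. Its lowest heart library, 45.3, lay above its highest brain library, 18.6. The log2 fold change was 2.56 ± 0.082 for Rpl35, 2.31 ± 0.061 for Rps2, 2.26 ± 0.067 for Rpl23 and 1.63 ± 0.056 for Rpl28 (the largest adjusted p of the 4 was 4.46e-21, edgeR). Of these, Rpl35 has the longest pyrimidine run around the annotated start shown above and Rpl23 the shortest.

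The 4 members lowest in heart over brain were Rpl24 (-2.03), Rpl5 (-0.86 ± 0.065), Rpl15 (-0.60 ± 0.048) and Rps23 (-0.40 ± 0.11), all called in edgeR. Rpl15 had 8.97 ± 1.2 CPM per kb in atria and 10.6 ± 1.5 in ventricles, and 11.7 ± 0.59, 17.8 ± 0.79 and 14.4 ± 0.90 in cerebellum, hippocampus and cortex. Its ventricle libraries reached 12.4 and so overlapped with those of the cerebellum, which began at 10.9. Rpl24 and Rps23 are among the members whose counts were low and shared with pseudogenes.

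Transcript length and reads outside genes moved with the heart and brain difference. Protein-coding genes under 1000 bases had a median log2 fold change of 0.93, those of 1000 to 2000 bases 0.39, those of 2000 to 5000 bases -0.01 and those over 5000 bases -0.28. The exonic lengths of the members ran from 542 to 6256 bases with a median of 2053. These lengths pool all annotated exons of a gene, so its single transcripts can be much shorter. The part of length and of reads outside genes in the members' difference was not tested. The other lists ran the same way, with 25 of 32 other ribosomal protein genes higher and 4 lower, 22 of 24 elongation and initiation factors higher and 1 lower, and 73 of 77 mitochondrial ribosomal protein genes higher and 2 lower.

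Within the brain, the cerebellum held less of most members. Against cortex 39 of 47 members were called, 2 higher and 37 lower, where 71.8% of all genes were called, 35.1% higher and 36.7% lower, and the members' median was -0.45. Against hippocampus 38 were called, 2 higher and 36 lower, where 70.8% of all genes were called, 35% higher and 35.9% lower, and the median was -0.40. Rps2 had 15.7 ± 0.75 CPM per kb in cerebellum, 38.5 ± 1.5 in hippocampus and 38.5 ± 1.4 in cortex, the largest fall in both comparisons, with log2 fold changes of -1.22 ± 0.096 and -1.23 ± 0.096.

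Other members lower in cerebellum than cortex were Rpl38, known for its role in translation of Hox messengers (-1.10 ± 0.21), Rps7 (-1.003 ± 0.19) and Rps15 (-0.96 ± 0.074). Against hippocampus they were Rpl37 (-0.77 ± 0.082), Rps23 (-0.71 ± 0.15) and Rps19, mutated in Diamond-Blackfan anaemia (-0.70 ± 0.093). The members higher in cerebellum were Rpl24 (1.11 ± 0.28) and Rpl5 (0.38 ± 0.093) against cortex, and Rpl24 (1.06 ± 0.28) and Rps29 (0.64 ± 0.22) against hippocampus. The medians of all genes were -0.01 in both comparisons.

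Between hippocampus and cortex 13 members were called, 6 higher and 7 lower, where 37.7% of all genes were called, 18.7% higher and 19% lower. With RLE in place of TMM, 2 ways of scaling libraries, the split was 4 higher and 9 lower, and with no filter on low counts 8 were called, 6 higher and 2 lower. The shares of all genes are from the fit with TMM and the filter, and none are given for these 2 fits. Rpl5 (0.34 ± 0.093), Rpl15 (0.33 ± 0.071) and Rpl22 (0.30 ± 0.063) were higher in hippocampus, and Rpl38 (-0.74 ± 0.20) and Rps15 (-0.26 ± 0.073) were lower. Rps29 (-0.67 ± 0.22) and Rpl28 (-0.25 ± 0.088) were lower as well, with adjusted p = 0.0556 and 0.0703 without the filter, and Rps4x (0.17 ± 0.067) was higher, with adjusted p = 0.0551 under RLE (edgeR).

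Between ventricles and atria 17 members were called, 4 higher and 13 lower, where 53.6% of all genes were called, 22.7% higher and 31% lower. With RLE scaling 12 were called, 4 higher and 8 lower, and with DESeq2 14, 4 higher and 10 lower. The shares of all genes are from the edgeR fit with TMM, and none are given for these 2 fits. The median of the members and of all genes was -0.07 alike. The members higher in ventricles were Rps29 (1.18 ± 0.23), Rps2 (0.32 ± 0.094), Rpl15 (0.20 ± 0.075) and Rpl22 (0.18 ± 0.063), and the last 2 lost the call without the filter on low counts (adjusted p = 0.139 and 0.121, edgeR). Rpl3 had the largest fall, -1.44 ± 0.064 (adjusted p = 9.28e-17, edgeR), followed by Rpl10 (-0.46 ± 0.098), Rps6 (-0.45 ± 0.13) and Rps4x (-0.35 ± 0.067).

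Rpl3 and its striated-muscle paralogue Rpl3l moved in opposite directions between the heart tissues. In Gnb5+/+ mice Rpl3 stood at 34.02 ± 5.8 CPM per kb in atria and 12.99 ± 2.3 in ventricles, and Rpl3l at 14.97 ± 6.3 in atria and 192 ± 25 in ventricles (SD, n = 6). The ranges of Rpl3 did not overlap between the tissues, 24.5 to 41.6 against 10.5 to 16.8, and neither did those of Rpl3l, 8.42 to 23.0 against 158 to 213. Rpl3l had a log2 fold change of 3.70 ± 0.20 between ventricles and atria (adjusted p = 6.25e-15, edgeR). Its share of the 2 levels was 18.8 to 46.7% with a median of 28.3% in atria, and 90.4 to 95.1% with a median of 94.0% in ventricles. These shares rest on exon lengths of 3175 bases for Rpl3 and 1643 for Rpl3l, each over all annotated exons of the gene. In the Gnb5+/+ brain tissues Rpl3l had means of 0.168 to 0.298 CPM per kb, and Rpl3 of 16.5 to 27.7.

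**Figure D5:**
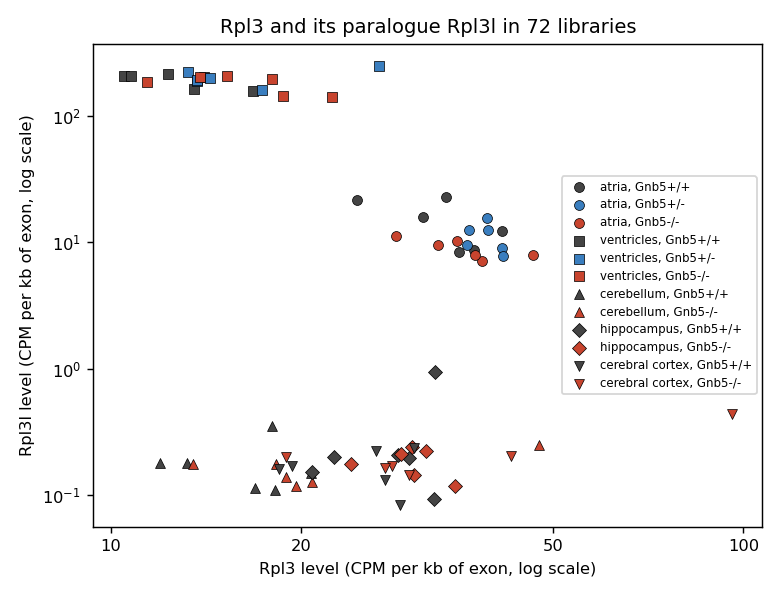
Rpl3l against Rpl3 in each of the 72 libraries, in CPM per kb of exon on log axes, with the tissue as symbol and the genotype as colour. The ventricles lie at the upper left (Gnb5+/+ means 12.99 and 192), the atria in the middle (34.02 and 14.97) and the brain tissues at the bottom, where Rpl3l is under 1.

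The pair was also examined by genotype. In ventricles Rpl3l stood at 201 ± 30 CPM per kb in Gnb5+/- and 180 ± 29 in Gnb5-/- mice, and Rpl3 at 16.5 ± 5.1 and 16.6 ± 3.9. In atria Rpl3l stood at 11.2 ± 2.9 in Gnb5+/- and 9.04 ± 1.6 in Gnb5-/- mice. The atrial log2 fold change of Rpl3l in Gnb5-/- mice was -0.72 ± 0.23 (unadjusted p = 0.00508, adjusted p = 0.337, edgeR), and the ranges of the groups, 7.13 to 11.3 and 8.42 to 23.0 CPM per kb, overlapped. The summed level of 3 ventricular markers in atrial libraries ran from 114 to 440.3 CPM (median 209.6) in Gnb5-/-, from 42.5 to 686 CPM (median 137) in Gnb5+/- and from 73.2 to 1335 CPM (median 381) in Gnb5+/+ mice, and its part in the Rpl3l values was not tested.

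Other paralogues of members differed between heart and brain by other amounts than the member itself. Rpl22l1 was lower in heart (-1.36 ± 0.13) while Rpl22 was higher (0.86). Rps27l, a p53 target, rose by 2.38 ± 0.063 and Rps27 by 1.41. Rpl7l1 rose by 0.35 and Rpl7 by 1.33, and Rps4l by 0.43 and Rps4x by 1.10. The difference between a paralogue and its member was not tested. Rpl10l was listed at 0 in the Gnb5+/+ libraries of all 5 tissues.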

How the data were processed

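The authors made stranded libraries of total RNA, trimmed the reads with cutadapt 1.8, filtered out ribosomal and low-complexity reads, aligned the rest to GRCm38 with STAR 2.5.3a and counted them on Ensembl genes with HTSeq 0.9.1. The deposited values are these counts per gene and library, whole numbers without normalization. Counting uniquely aligned reads alone leaves out reads that match a gene and its pseudogenes equally, of which ribosomal protein genes have many. Reads assigned to no gene were left out of library sizes: 2.85 to 17.0% of uniquely aligned reads lay outside genes, and alignments that were not unique made up 15.5 to 49.5% of unique and non-unique alignments together. Symbols and coordinates came from GENCODE M21 (53620 of 53715 identifiers matched, 95 not), and promoter sequences from RefSeq.

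Within a tissue, genotypes were set against each other with edgeR 4.0.16 in R 4.3.3 (TMM scaling, filterByExpr with a count minimum of 10, glmQLFit and glmQLFTest, genotype alone), with Benjamini-Hochberg adjustment over all genes tested and a threshold of 0.05. Heart fits held all 3 genotypes. Tissues of Gnb5+/+ mice, and interactions, were fitted with the mouse as a block, since tissues share the mouse numbers in the labels. Each standard error was taken as the absolute log2 fold change over the root of F. Log2 CPM used a prior count of 2. Depth, 29204390 to 48807435 counts per library, leaves members with few counts imprecise, and replicate spread includes this counting error. Pseudogenes were matched with BLAST+ 2.17.0+ (95% identity, 80% of length). The fits were tested on simulated data.

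Genes were named by a rule: members called, or the 3 of smallest p where none were, the 4 largest and 4 smallest changes among those called between tissues, the 3 highest and 3 lowest levels, members on chromosome 9 and paralogues of members. The members and all gene lists were chosen with earlier results of these data known. The alternatives tried were DESeq2 1.42.0, RLE scaling, TMM without ribosomal protein genes, no filter, 10 counts in every library, fits of 2 genotypes, a replicate block, a covariate for the share of reads outside genes, addition of matching pseudogenes and, for tissues, no mitochondrially encoded genes. Fits without the 4 libraries described were in part chosen after seeing the data. Protein levels were not analysed here.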

Additional observations from a re-analysis of the deposited data

Results flagged for a closer look

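In 3 of the 12 groups of 6 libraries, the summed level of the 47 ribosomal protein genes had its highest library farther from the rest than Dixon's 95% critical value allows for 6 samples (the gap to the nearest library divided by the range of the group). Chance exceeds this value in about 1 of 20 groups. The 3 were the Gnb5-/- cerebral cortex of mouse 14 at 15648 CPM (0.833), the Gnb5-/- cerebellum of mouse 12 at 7160.9 CPM (0.928) and the Gnb5+/- ventricles of mouse 4 at 4636.2 CPM (0.920). The cortex of mouse 3, at 5076 CPM, was not picked out because mouse 14 lay in the same group. In all of them other short protein-coding genes were high as well, and fewer reads lay outside genes than in the other libraries of the tissue. The part of these values in the members' levels was not tested.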

How the results depend on the processing

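No member was called in any of the 9 comparisons of genotype or the 5 interactions under any alternative run. Single Gnb5-/- and Gnb5+/+ libraries were left out in turn in the 5 comparisons of these genotypes, where the counts of calls ranged from 0 to 0. The other comparisons of genotype were refitted in ventricles without mouse 4 alone, and the interactions without 3 brain libraries together. The mice of same-numbered replicates are different animals, and their deviations did not go together (correlations from -0.242 to 0.147 within tissues, 1 of 30 pairs over 0.1), so the numbers do not pair the libraries. With the replicate number as a block 0 members were called in each comparison of genotype. Without the mouse as a block, 39, 37, 41, 12 and 17 members were called between cerebellum and cortex, cerebellum and hippocampus, heart and brain, hippocampus and cortex, and ventricles and atria. No share of all genes called without the block is given, so these counts serve only for comparison with those of the members with the block. Between hippocampus and cortex of Gnb5+/+ mice, 8 members were called with no filter against 13. With a covariate for the share of reads outside genes, the log2 fold change in Gnb5-/- mice turned to -0.11 for Rps2 and -0.13 for Rpl18 in cerebellum, and to -0.057 for Rps14 and -0.029 for Rpl13 in cortex, and none was called either way. The cause was not tested. Among the tissue differences of named members in Gnb5+/+ mice, 7 values kept their direction but lost the call (edgeR). Without the mouse block these were Rps9 between cerebellum and hippocampus (adjusted p = 0.062) and Rps4x between hippocampus and cortex (adjusted p = 0.0592, and 0.0551 with RLE normalization). With no filter they were Rps29 and Rpl28 between hippocampus and cortex (adjusted p = 0.0556 and 0.0703) and Rpl15 and Rpl22 between ventricles and atria (adjusted p = 0.139 and 0.121). Depth limits Rpl24, which was not tested in the heart within tissues, and Rps29 most.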
